A study of Homo sapiens with 2 samples.

Results

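Notch receptors, their ligands and the target gene HES1 were followed in the human oesophageal squamous carcinoma line TE-1 after transfection with PCDNA3.1-Pax2 or with the empty PCDNA3.1 vector. The set holds the 4 receptors NOTCH1 to NOTCH4, the 5 ligands JAG1, JAG2, DLL1, DLL3 and DLL4, and HES1. These 10 genes were taken by the gene name in the array's own annotation and were represented by 18 of 45033 features, out of 23595 genes in all. Total RNA was collected 24 h after transfection and hybridised to 2 single-colour arrays, 1 for the PAX2 vector and 1 for the empty vector. PAX2, a paired-box DNA-binding factor, patterns the kidney and genital tract, and the stated aim was to find genes that it activates. Both groups are 1 cell line with 1 array each, so differences carry neither a replicate check nor a p-value; precision is limited by how few arrays there are. The labels do not give the share of cells that took up the vector, and in bulk RNA fewer responding cells and less RNA per cell cannot be told apart.

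Notch receptors are single-pass membrane proteins that are activated by ligands of the Jagged and Delta-like families on a neighbouring cell. Ligand pull exposes a site for an ADAM protease, gamma-secretase then frees the intracellular domain, and this domain joins RBPJ and a Mastermind protein in the nucleus to switch on targets such as HES1, a bHLH repressor. In squamous epithelia, the oesophagus among them, Notch signalling is known to drive cells out of the basal layer towards differentiation.

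The promoter of HES1 is shown because HES1 is the set's transcriptional readout and had its largest difference, and that of NOTCH2 because it had the next largest among the genes measured above the filter given below. Both sequences are the 250 bases before the gene's start in RefSeq, build GRCh38.p14, written 5′ to 3′ on the strand of the gene. Capitals mark TGGGAA, the core of the RBPJ binding motif. The HES1 window is chr3:194135898-194136147 on the plus strand, and the NOTCH2 window is chr1:120069663-120069912 on the minus strand.
HES1: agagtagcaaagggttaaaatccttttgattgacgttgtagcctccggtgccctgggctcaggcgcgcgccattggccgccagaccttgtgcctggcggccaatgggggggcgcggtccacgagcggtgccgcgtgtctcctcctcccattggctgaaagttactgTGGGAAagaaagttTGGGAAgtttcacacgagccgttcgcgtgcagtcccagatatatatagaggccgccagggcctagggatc
NOTCH2: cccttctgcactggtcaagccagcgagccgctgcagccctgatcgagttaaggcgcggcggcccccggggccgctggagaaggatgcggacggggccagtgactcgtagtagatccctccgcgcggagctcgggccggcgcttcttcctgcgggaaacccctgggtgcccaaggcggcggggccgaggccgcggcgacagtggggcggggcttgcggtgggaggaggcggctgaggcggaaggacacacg

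HES1 carried TGGGAA at 2 places, 84 and 70 bases before the start and in the same orientation. The first of them lies within the longer TGTGGGAA. TGGGAA on either strand (TTCCCA on the other) was found in 20.8% of 35116 promoter windows of this length, at least 2 copies were found in 2.90%, and TGTGGGAA was found in 1.43%. Of the 8 members in the promoter table, HES1 was the only one with TGGGAA in the window. The N-box CACNAG, a sequence that HES1 itself is known to bind, lay 165, 132 and 58 bases before the HES1 start, once on the opposite strand, and was found in 32.0% of all windows. It also occurred in the windows of NOTCH3 and NOTCH4. None of these occurrences overlaps a TGGGAA. A match describes letters in a window and not a bound site. DLL1 and DLL3 are named only.

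The array gives no positive check of the transfection. The single PAX2 feature read 22.1 on the PAX2-labelled array and 22.2 on the control array, beside 19.3 and 20.6 for the random-sequence probes, so the array is called PAX2-labelled here. The files do not give probe positions, so whether the feature's probes lie within the vector's insert is not known. Why the feature read alike on both arrays was not tested. The median feature stood at 210 on the PAX2-labelled array and 205 on the control array. Of 14 squamous markers 8 were measured: KRT5, KRT6B, KRT14, KRT16, KRT17, SFN, TRIM29 and PERP. KRT6A, TP63, SOX2, DSG3, DSC3 and PKP1 were not. Of the 8, KRT6B (-0.38) and PERP (-0.22) were lower on the PAX2-labelled array and the rest were higher. The summed squamous marker intensity was 84157 on the PAX2-labelled array and 72873 on the control array. SFN and TRIM29, at log2 15.20 and 14.68 on the PAX2-labelled array, made up most of this sum, so it does not stand for the list. Per gene, the 8 measured markers had a median difference of 0.20. Of 10 endothelial markers only ESAM was measured, at log2 11.28 on the PAX2-labelled array and 11.21 on the control array, and the summed list stood at 2913 and 2739 on the same arrays. CD68 alone of 11 leukocyte markers and COL1A1, DCN and FBLN1 of 10 fibroblast markers were measured. Of 7 general epithelial markers KRT8, KRT18, CLDN7 and CLDN4 were measured, and CDH1, EPCAM and KRT19 were not. On the PAX2-labelled and control arrays the sums were 50156 and 45143 for general epithelial markers. They were 803 and 975 for leukocyte and 28489 and 23334 for fibroblast markers. FBLN1, at log2 14.68 and 14.40 on the same arrays, made up most of the fibroblast sum. ESAM made up most of the endothelial sum, so neither sum stands for its list. No measured marker of the 5 lists differed 2-fold.

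A gene was treated as measured when the mean log2 intensity of its features was no lower than that of the median feature on 1 or both arrays, which held for 11628 genes. NOTCH1, NOTCH2, NOTCH3, JAG2 and HES1 passed, and NOTCH4, JAG1, DLL1, DLL3 and DLL4 did not. Of the 5 measured members none was 2-fold higher and none 2-fold lower, where 1.13% of all measured genes passed 2-fold upwards and 1.16% passed it downwards. The measured members had a median difference of 0.12 on the log2 scale (PAX2-labelled minus control), beside 0.02 for all measured genes. HES1 and NOTCH2 had the largest positive differences, NOTCH1 and JAG2 were near 0, and NOTCH3 had a negative one. At the level of single features, 14 of the 18 were above 0 and 4 below, where 51.7% of all features were above 0. Of the 18, 6 did not exceed the limit for silent genes (given below) on either array, 3 of them above 0 and 3 below. None of the 18 reached 2-fold, against 4.87% of all features that passed 2-fold upwards and 5.04% that passed it downwards.

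**Figure D1:**
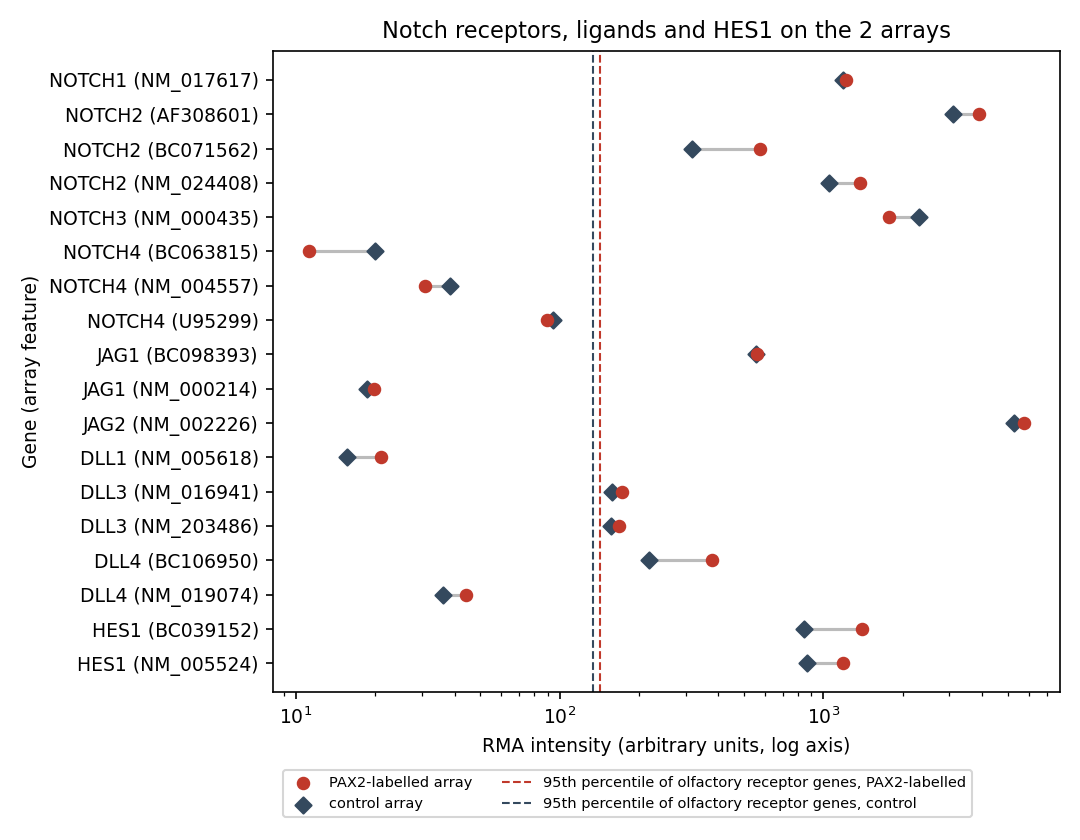
RMA intensity (log axis) of each of the 18 features on the PAX2-labelled array (red circles) and the control array (dark diamonds), with dashed lines at each array's upper limit for silent genes (95th percentile of olfactory receptors). Both HES1 features and all 3 NOTCH2 features lie to the right on the PAX2-labelled array, the NOTCH3 feature lies to the left, and 6 features lie below both dashed lines.

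Spread was judged in 2 ways that need no replicate: the SD of the difference over all genes in the same decile of brightness, and the SD of single features around the mean difference of their gene. Both leave out how far repeat cultures or repeat arrays would vary. A gene was said to be within the range of silent genes on an array when it did not exceed the 95th percentile of 376 olfactory receptor genes, most of which should be off in an epithelial line. That limit was an intensity of 142 on the PAX2-labelled array and 134 on the control array. Levels are compared only between arrays for the same feature, since features of different sequence bind their targets with different strength, so the genes are not ranked by level.

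Among the receptors, NOTCH2 had the largest difference in the same direction in every feature. Its feature AF308601 (HG18 chromosome 1, 120257227 to 120413543) read 3879 on the PAX2-labelled array and 3090 on the control array. Feature NM_024408 had 1371 on the PAX2-labelled array and 1051 on the control array. Feature BC071562, which spans a shorter part of the gene (120279259 to 120413789), had 576 on the PAX2-labelled array and 316 on the control array. All 3 were thus higher on the PAX2-labelled array, by 0.33, 0.38 and 0.86 on the log2 scale, and the dimmest of them differed most. The mean was 0.53, a 1.44-fold difference, beside an SD of 0.29 over genes of like brightness and of 0.30 for a single feature. In that decile of brightness 157 of 2360 measured genes (6.65%) had a larger difference in either direction. With the brightest feature alone the NOTCH2 difference was 0.33.

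NOTCH2 has near-identical partial copies in the human genome, the NOTCH2NL genes, and the file names 3 features NOTCH2NL (NOTCH2NLA in the current gene table). Feature NM_203458 had 5198 on the PAX2-labelled array and 2960 on the control array, a difference of 0.81. Feature AK075065 had 549 and 379 on the same arrays, a difference of 0.53, and BC090943 had 10190 and 10561, a difference of -0.05. So 2 of the 3 were higher on the PAX2-labelled array, as the 3 NOTCH2 features were. The files give no probe positions, so NOTCH2 and NOTCH2NL signal cannot be told apart for these features, and the NOTCH2 values are uncertain in this respect.

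NOTCH3, a receptor best known in vascular smooth muscle and itself a Notch target, was the only measured member below 0. Its 1 feature (NM_000435, HG18 chromosome 19, 15131443 to 15172792) had 1772 on the PAX2-labelled array and 2302 on the control array. The difference was -0.38, a 1.30-fold lower intensity, beside an SD of 0.27 over genes of like brightness and a single-feature SD of 0.25. In its decile of brightness 297 of 2359 measured genes (12.6%) had a larger difference in size.

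NOTCH1, the main receptor of differentiating keratinocytes, showed almost no difference. Its feature (NM_017617, HG18 chromosome 9, 138508716 to 138560059) had 1219 on the PAX2-labelled array and 1185 on the control array, a difference of 0.04. Of all measured genes 86.5% had a larger difference in size.

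NOTCH4, a receptor known mainly from endothelium, was within the range of silent genes in all 3 features on both arrays, so no fold is given. Its feature U95299 (HG18 chromosome 6, 32271171 to 32299758) had 89.4 on the PAX2-labelled array and 94.3 on the control array, NM_004557 had 30.8 and 38.4 on the same arrays, and BC063815 had 11.2 and 20.0. All 3 were dimmer on the PAX2-labelled array. At this brightness the SD of the difference was 0.77, more than the size of the mean NOTCH4 difference of -0.41.

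Among the ligands only JAG2 was measured, and its difference was small. Its feature (NM_002226, HG18 chromosome 14, 104679120 to 104706206) had 5752 on the PAX2-labelled array and 5282 on the control array. The difference of 0.12 lay within the SD of 0.22 for genes of like brightness.

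JAG1, the other Jagged ligand, gave opposite readings of its level from 2 features that cover nearly the same span. Feature BC098393 (HG18 chromosome 20, 10566630 to 10602597) had 558 on the PAX2-labelled array and 556 on the control array, well above the silent range. Feature NM_000214 (10566333 to 10602590) had 19.8 and 18.6 on the same arrays, about what the random-sequence probes gave. The features thus disagreed on whether JAG1 is detectable, while both showed little difference between the arrays (0.01 and 0.09 on the log2 scale). The mean of the 2 fell below the filter.

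DLL4, a ligand known from sprouting vessels, likewise had 1 feature above the silent range and 1 within it. Feature BC106950 (HG18 chromosome 15, 39009022 to 39018008) had 378 on the PAX2-labelled array and 219 on the control array, a difference of 0.79. Feature NM_019074 had 44.2 and 36.0 on the same arrays, a difference of 0.30. Both were brighter on the PAX2-labelled array. The mean of 0.54, lowered by NM_019074, was smaller than the SD of 0.65 for genes of like brightness. Feature BC106950 alone, at 0.79, is brighter than the gene mean, and that SD over genes does not apply to it. It stood above the median feature on both arrays (percentile 58.3 on the PAX2-labelled and 51.0 on the control array). DLL4 thus fell below the filter through NM_019074.

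DLL3, which in mouse acts inside the cell and does not activate Notch on neighbouring cells, had 2 features of nearly equal readings over the same span (HG18 chromosome 19, 44681426 to 44690949). Feature NM_016941 had 172 on the PAX2-labelled array and 158 on the control array, and NM_203486 had 167 and 156 on the same arrays. Both lay just above the silent range and below the median feature, and they differed between arrays by 0.12 and 0.10 on the log2 scale. DLL1, an activating Delta-like ligand, had 21.1 on the PAX2-labelled array and 15.6 on the control array in its 1 feature (NM_005618, HG18 chromosome 6, 170433225 to 170441398). Both DLL1 values were close to those of the random-sequence probes, so no fold is given.

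HES1, the target gene whose promoter is printed above, had the largest difference of the measured members, and both of its features were higher on the PAX2-labelled array. Feature BC039152 (HG18 chromosome 3, 195336667 to 195339092) had 1400 on the PAX2-labelled array and 846 on the control array. Feature NM_005524 (195336627 to 195339090) had 1183 on the PAX2-labelled array and 864 on the control array. The differences were 0.73 and 0.45, and their mean of 0.59 was a 1.51-fold higher intensity. The SD was 0.29 over genes of like brightness and 0.30 for a single feature. HES1 was the only measured member past 1.5-fold, which 4.51% of all measured genes were in that direction, and it was below 1.5-fold after centring (0.56 on the log2 scale), quantile normalization (0.55), loess (0.56) or an offset of 64 (0.56). In its decile of brightness 106 of 2360 measured genes (4.49%) had a larger difference in either direction. With 2 arrays the pattern of a gene is a single difference, and 240 measured genes lay within 0.05 of that of HES1, so no gene of nearest pattern is named.

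**Figure D2:**
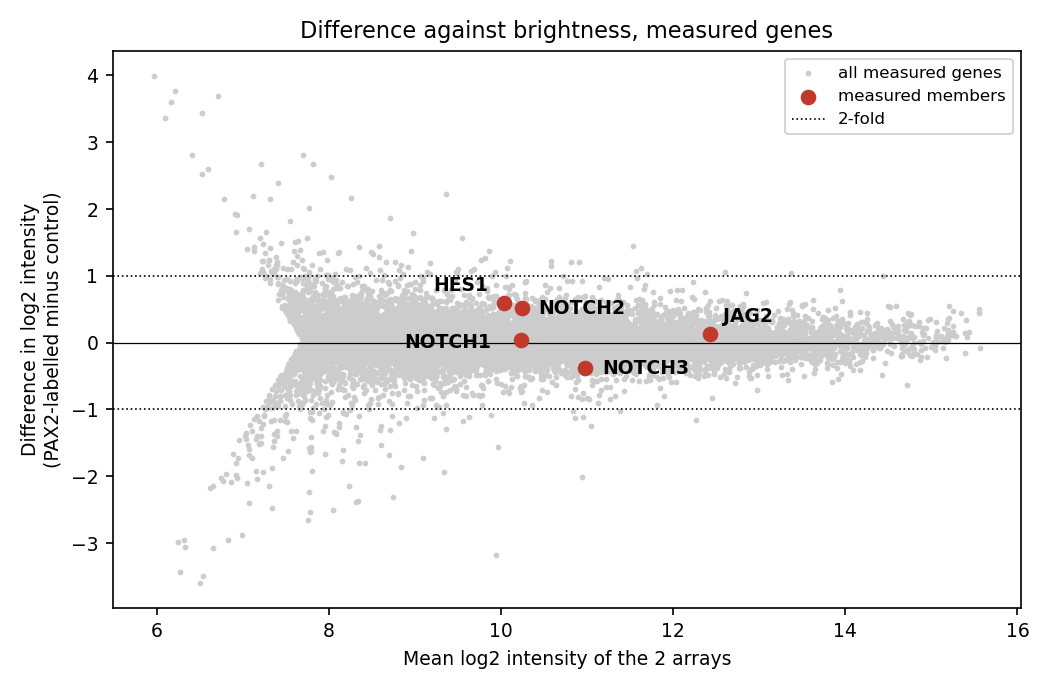
Difference in log2 intensity (PAX2-labelled minus control) against the mean log2 intensity of the 2 arrays for the 11628 measured genes (grey) and the 5 measured members (red), with dotted lines at 2-fold. HES1 (0.59) and NOTCH2 (0.53) lie towards the upper edge of the grey band, NOTCH1 (0.04) and JAG2 (0.12) in its middle and NOTCH3 (-0.38) towards its lower edge, all inside the dotted lines.

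The wider pathway was described with 79 other genes in 8 roles, 77 of them on the array and 53 measured. None of the 53 was 2-fold higher and none 2-fold lower, where 1.13% of all measured genes passed 2-fold upwards and 1.16% downwards. At these shares a count of 0 among 53 genes is not particular to the pathway. Differences were above 0 for 36 and below 0 for 17, and the median was 0.11, beside 0.02 for all measured genes, 53.4% of which were above 0. Of the 36, POGLUT1, KDM5A and SOX9 passed the filter only through the PAX2-labelled array, where they were higher, and no gene passed only through the control array. The 50 that passed on both arrays, a count added after the values were seen, held 33 above 0 and 17 below, with a median of 0.10.

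Measured genes that act on the ligand or on receptor sugars had small positive differences, while some genes below the filter had negative ones. All 4 measured genes of ligand endocytosis were above 0, with the epsin EPN2 the largest (0.34, and 0.15 to 0.67 over its 3 features). MIB1, below the filter, had a mean of -0.27 over features that disagreed. All 3 measured sugar transferases were above 0, with the O-glucosyltransferase POGLUT1 at 0.25. POGLUT1 passed the filter only through the PAX2-labelled array, which fixed its sign. Its feature AK126736 (0.61) was within the silent range on both arrays, and its other 3 features averaged 0.13. LFNG, a Fringe glycosyltransferase below the filter, had 135 on the PAX2-labelled array, within the silent range, and 202 on the control array. Counted from the silent limit this is at least 1.42-fold lower, a bound that leaves out how far repeat arrays would vary. The LFNG difference of -0.59 was smaller in size than the SD of 0.65 for genes of like brightness. MFNG was also below the filter (0.15). Of the other ligands DLK2 (0.25) and the microfibril protein MFAP2 (0.12) were measured.

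The cleavage machinery was the role with all of its 9 genes measured, 7 of them above 0 and a median of 0.16. ADAM17, a sheddase that can cut the receptor's outer part, had the largest difference (0.42). Its feature BC062687 had 526 on the PAX2-labelled array and 371 on the control array, and NM_003183 had 1298 and 1028 on the same arrays. Further genes of this role, chosen after their values were seen, are ADAM10 (0.09) and nicastrin, NCSTN (-0.01), a gamma-secretase subunit.

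Of 7 measured genes of receptor turnover 5 were above 0 (median 0.08), and the largest difference was negative. NUMB, an inhibitor of Notch that promotes receptor endocytosis, had 930 on the PAX2-labelled array and 1552 on the control array in its 1 feature. That is a difference of -0.74 and a 1.67-fold lower intensity, beside an SD of 0.29 over genes of like brightness. Its relative NUMBL had 0.30 in the other direction, and NRARP, a feedback inhibitor and direct Notch target, had -0.02. Both were chosen after their values were seen.

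In the transcription complex 3 of 6 measured genes were above 0 and the median was 0.02. The acetyltransferase CREBBP had the largest difference (0.57), although its feature NM_004380 was within the silent range on both arrays (133 on the PAX2-labelled array and 101 on the control array). Its other feature U85962 had 839 and 496 on the same arrays. RBPJ, the DNA-binding partner of the receptor, had a mean of -0.04, with features from -0.37 to 0.29.

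All 13 corepressors on the array were measured, 8 of them above 0 (median 0.11). Among the 8 is KDM5A, which passed the filter only through the PAX2-labelled array, so its sign was fixed. TLE2, a Groucho-family corepressor that HES proteins recruit, had 351 on the PAX2-labelled array and 657 on the control array in its 1 feature. This difference of -0.90, a 1.87-fold lower intensity, was the largest in size of the 53 genes, beside an SD of 0.35 over genes of like brightness. The relatives TLE1 (-0.16), TLE3 (0.41) and TLE4 (0.22) did not share one direction. NUMB and TLE2 were the only genes of the 53 at least 1.5-fold lower, where 3.22% of all measured genes were, and none was 1.5-fold higher.

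The other genes listed as Notch targets did not share one direction. Whether Notch induces each of them in these cells was not tested. Of 10 measured genes on this list 4 were above 0 and 6 below, with a median of -0.03. Of all measured genes 53.4% were above 0, with a median of 0.02. Among the 4 is SOX9, which passed the filter only through the PAX2-labelled array, so its sign was fixed. The largest difference was that of the NF-kappaB subunit NFKB2, 0.42, with 0.41 and 0.43 in its 2 features. Among the relatives of HES1, given for comparison, HES2 had -0.09, HES4 0.06, HES7 -0.31 and HEY1 -0.05. HEY2, HEYL, HES3, HES5 and HES6 were below the filter.

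**Figure D3:**
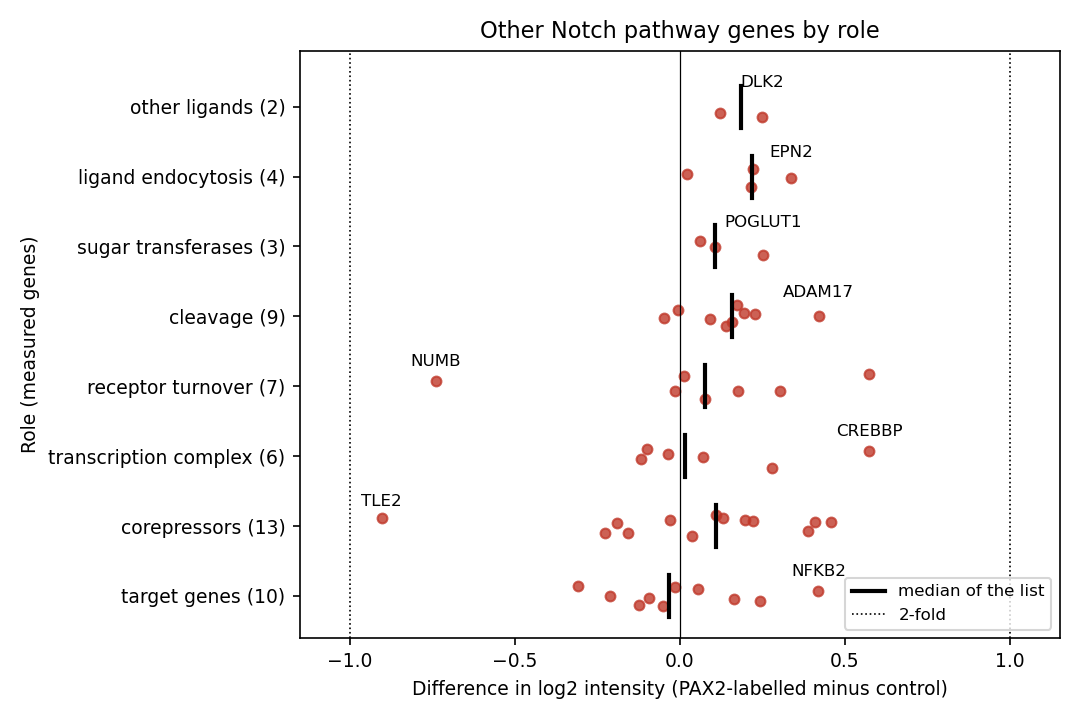
Difference in log2 intensity (PAX2-labelled minus control) of the measured genes of 8 pathway roles, 1 point per gene, with a black bar at the median of each list, dotted lines at 2-fold and the gene of largest difference named. All points lie inside the dotted lines, and the points farthest from 0 are TLE2 (-0.90) and NUMB (-0.74). NRARP stands in 2 roles.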

How the data were processed

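Total RNA of TE-1 cells was measured on 2 single-colour Cy3 NimbleGen arrays. The authors deposited linear-scale intensities, made with RMA according to the submitters' processing notes. Its version and any between-array step were not given in the sources used. Each deposited value comes with a count of its probes (3 for 45031 of 45033 features), and per the file headers names and coordinates are on build HG18. The series table repeats the per-array values. From the deposited intensities log2 values were computed with no offset and averaged over the features of a gene. Gene identifiers of 38916 features matched a symbol in the RefSeq gene table (assembly GRCh38.p14). Differences are log2 PAX2-labelled minus log2 control.

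The members and lists were chosen with earlier results of these data known. All 10 members are named, and per pathway role any measured gene past 2-fold and the one of largest difference. The other pathway genes that are named fall outside this rule and were not chosen in advance. Alternatives were centring, loess (fraction 0.3), quantile normalization, the series table, an offset of 64, the brightest feature, other filters and a 1.5-fold threshold. The calculations were tested on simulated data with planted differences larger than those of the members. This checks the code and says nothing about differences of the size reported. Python 3.11.15, pandas 2.3.3 and statsmodels 0.14.6 were used. The depth of signal is given by the random-sequence probes, a summary of 5000. Some genes are not reported here by name.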

Additional observations from a re-analysis of the deposited data

How the results depend on the processing

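No paired analysis was possible because neither vector has a second array. The member differences were recomputed under 6 alternatives each. Of these 60 values none turned sign, and 59 moved by less than the single-feature SD divided by the square root of the number of features. The exception was NOTCH2 with its brightest feature, 0.33 (limit 0.17). Not all of the 60 values could move. The series table repeats the per-array values, and for 4 members the brightest feature is the only feature, so these cases say nothing about stability. Centring shifts every member by 1 constant that is smaller than any of the limits. For NOTCH1, NOTCH4, JAG1, JAG2, DLL1 and DLL3 the limit exceeded the size of the difference itself (DLL1: limit 0.70, difference 0.44), so staying within it says little. The limit also treats the features of a gene as independent, which was not tested. The ranges were 0.55 to 0.73 for HES1, 0.33 to 0.49 for NOTCH2 outside the series table, -0.41 to -0.37 for NOTCH3 and 0.003 to 0.041 for NOTCH1. They were wider for dim members: -0.44 to -0.08 for NOTCH4, 0.10 to 0.48 for DLL1 and 0.38 to 0.79 for DLL4. The median of the measured members stayed between 0.089 and 0.12. At 1.5-fold 1 member was higher (HES1), and in the wider pathway 2 genes were lower (NUMB and TLE2). With the brightest feature of each gene 1 pathway gene was at least 2-fold higher (MIB1, 1.40), which follows from using 1 of its 3 features. In that setting 1.70% of the 12785 genes that passed the filter were at least 2-fold higher. With no filter 1 was 2-fold higher (DNER, 1.09) and 1 lower (HES3, -1.84), both within the range of silent genes on both arrays, beside 3.20% higher and 4.07% lower of all genes. No other count of members or pathway genes past 2-fold left 0. Low signal over background limits NOTCH4, DLL1 and the dimmer features of JAG1 and DLL4.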

Other observations

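The following genes were chosen after their values were seen. HES6, a relative of HES1 that opposes it in mouse, was below the filter as a mean of 3 features that disagreed. Feature NM_018645 (HG18 chromosome 2, 238811646 to 238813409) had 273 on the PAX2-labelled array and 95.2 on the control array, where it was within the silent range. Counted from the silent limit it was at least 2.03-fold higher, a bound that leaves out how far repeat arrays would vary. Feature AF260237 had 95.6 and 41.2 on the same arrays, both within that range. Feature AK075040 had 252 on the PAX2-labelled array and 253 on the control array. The features cover nearly the same span, so no direction is given for the gene.

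MIB1, a ubiquitin ligase that drives endocytosis of Notch ligands, had features in opposite directions. BC110581 had 617 on the PAX2-labelled array and 233 on the control array, a difference of 1.40. AY147849 had 43.7 and 190 on the same arrays. Counted from the silent limit it was at least 1.33-fold lower, and this bound too leaves out how far repeat arrays would vary. NM_020774 had 109 and 115, both within the silent range. DTX3L, a ubiquitin ligase of the Deltex family, was 0.57 higher on the PAX2-labelled array, with 0.29 and 0.85 in its 2 features.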
